A study of Drosophila melanogaster with 6 samples.

Results

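Of 8 genes of eye pigmentation, 6 were measured with probe sets of their own in whole male flies of the strain W1118, a white-eyed stock that the labels call wild type. They were st, bw, Pu, se, ry and cn, with 7 probe sets of 18769 tested. Members were probe sets annotated to a single gene of a list of 8 pigment genes. The other members of that list, w and v, had no probe set named here and were not analysed here, so the reading of w in this strain cannot be given. The white-mutant background could therefore not be checked on the arrays.

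Transcripts were read on 6 Affymetrix arrays, each carrying biotin-labelled RNA of a pool of 10 whole male flies aged 30 days. Control flies (3 arrays) had unsupplemented food, and the other flies (3 arrays) had food with 50 µmol/l lithocholic acid (LCA), a secondary bile acid of vertebrates. All groups carried the same W1118 background, and a pool mixes eyes with every other tissue, so fewer cells of a type and less RNA per cell cannot be told apart. Nothing in the labels states that pools of the same diet were raised apart, and p-values therefore cover the spread between these 6 pools, which may be technical in part.

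Fly eyes owe their red-brown colour to brown ommochromes, made from tryptophan, and red pteridines, made from GTP. The protein of w pairs with that of st to carry ommochrome precursors into pigment granules and with that of bw to carry pteridine precursors. W1118 carries a null allele of w, and its eyes lack both pigments although the partner transporters and the synthesis enzymes have no known mutation there. The same enzymes act outside the eye, since Malpighian tubules, the fly's excretory organs, and fat body handle tryptophan, pterins and purines. Pterins also serve as cofactors of amine synthesis in neurons and cuticle.

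The arrays had median log2 signals of 6.31 to 6.39. Control replicate 1 was the most distant array, at −42.7 on a leading principal component with 54.1% of the variance, where the other arrays had −15.4 to 21.4. Markers fitted the labelled material: 10 measured genes of the male accessory gland averaged 7.44 to 13.1 over all arrays and 10 of photoreceptors 8.75 to 13.7. With 3 arrays per diet, their number limits the precision. limma, a linear model with a spread shared across probe sets, placed 0 of 18769 probe sets (0%) at an adjusted p under 0.05, and 3026 (16.1%) at an unadjusted p under 0.05. Its lowest Benjamini-Hochberg adjusted p was 0.0697.

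The question asked of the pigment genes was whether their transcripts differed between the diets. None of the 7 probe sets passed limma's adjusted threshold, and only Pu was below an unadjusted p of 0.05. The mean was lower for 4 probe sets and higher for 3 in LCA flies (52.1% and 47.9% of all probe sets). The plot of log2 signal by array gives every value.

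**Figure D1:**
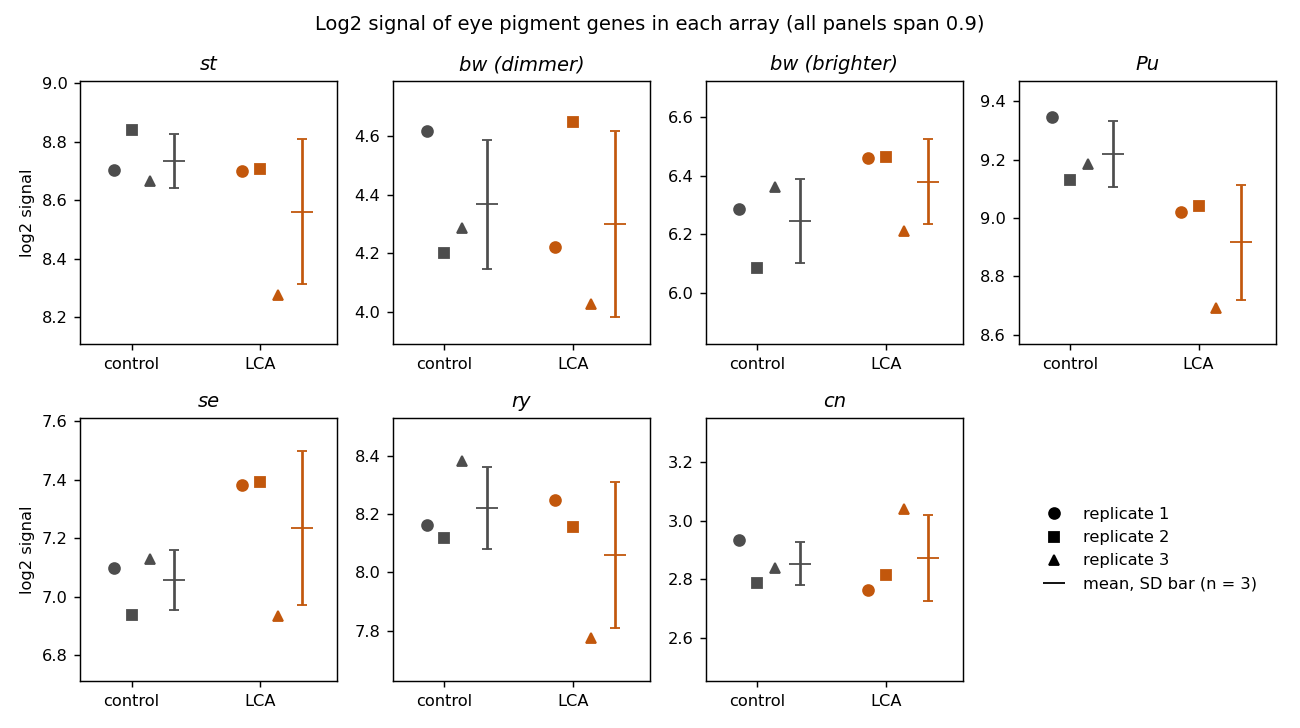
Log2 signal (y axis, each panel spanning 0.9) of the 7 probe sets of eye pigment genes in control and LCA arrays (x axis); marker shapes are replicates 1 to 3, and the bar is the mean with its SD (n = 3). Only for Pu do all LCA arrays lie below all control arrays, and LCA replicate 3 (triangle) is the lowest array for st, Pu, se, ry and the dimmer probe set of bw.

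Of the transporters, st read 8.70, 8.84 and 8.66 in control replicates 1 to 3 and 8.70, 8.71 and 8.28 in LCA replicates 1 to 3, as log2 signal. LCA replicate 3 lay below a narrow band that held the other arrays, and the groups overlapped. The mean was 8.74 ± 0.09 in control and 8.56 ± 0.25 in LCA flies (SD, n = 3 each). The log2 difference was −0.17 ± 0.14 (LCA minus control, SE; limma, 95% interval −0.49 to 0.15, adjusted p = 0.547). Without LCA replicate 3 it was −0.031. The signal of st stood at the 74.3rd to 81.9th percentile of all probe sets of an array in this white-mutant strain, a rank that also depends on how well the probes bind.

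The other transporter, bw, had a pair of probe sets. The brighter read 6.29, 6.08 and 6.36 in control and 6.46, 6.46 and 6.21 in LCA replicates 1 to 3. LCA replicates 1 and 2 were above every control array, while LCA replicate 3 lay among the controls. Its log2 difference was 0.14 ± 0.11 (SE; limma, 95% interval −0.13 to 0.40, adjusted p = 0.582). The dimmer read 4.62, 4.20 and 4.29 in control and 4.22, 4.65 and 4.03 in LCA replicates. Neither diet was higher throughout: control replicate 1 and LCA replicate 2 were the high arrays. Its log2 difference was −0.068 ± 0.18 (SE; limma, 95% interval −0.50 to 0.37, adjusted p = 0.888), so the probe sets of bw disagreed in sign and neither was distinguished from 0. The sign of the dimmer turned without LCA replicate 3 (0.068) or without control replicate 1 (0.057).

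The pteridine enzymes came next. Pu encodes GTP cyclohydrolase, which commits GTP to pterin synthesis. It read 9.35, 9.13 and 9.18 in control and 9.02, 9.04 and 8.69 in LCA replicates 1 to 3. Every LCA array lay below every control array, as in 13.2% of all probe sets. The log2 difference was −0.30 ± 0.12 (SE; limma, 95% interval −0.59 to −0.014, unadjusted p = 0.0421, adjusted p = 0.299), a signal 1.23 times higher in control flies, and the exact two-sided permutation p was 0.1, the smallest that 3 against 3 arrays allow. An unadjusted p under 0.05 with the lower mean in LCA flies was found for 8.59% of all probe sets. The difference was −0.19 without LCA replicate 3 (limma, adjusted p = 0.604) and −0.24 without control replicate 1 (limma, adjusted p = 0.451), and the unadjusted p was above 0.05 without LCA replicate 3 and when any single control replicate was left out.

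The enzyme of se makes a late intermediate of the red drosopterins, and it belongs to the omega class of glutathione S-transferases. Its signal was 7.10, 6.94 and 7.13 in control and 7.38, 7.39 and 6.93 in LCA replicates. LCA replicates 1 and 2 lay above all control arrays and LCA replicate 3 fell just under the lowest of them. The log2 difference was 0.18 ± 0.14 (SE; limma, 95% interval −0.16 to 0.52, adjusted p = 0.553). Leaving out LCA replicate 3 gave 0.33 (limma, adjusted p = 0.467).

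The gene ry encodes xanthine dehydrogenase, which makes urate and oxidises pterins. It read 8.16, 8.12 and 8.38 in control and 8.25, 8.16 and 7.78 in LCA replicates. LCA replicate 3 was the low array and LCA replicates 1 and 2 lay inside the control range. The log2 difference was −0.16 ± 0.14 (SE; limma, 95% interval −0.50 to 0.18, adjusted p = 0.607), and −0.019 without LCA replicate 3.

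Of the ommochrome enzymes only cn was measured among the members, and its signal was near the bottom of the arrays. This gene encodes the kynurenine 3-monooxygenase of the pathway from tryptophan. It read 2.93, 2.79 and 2.84 in control and 2.76, 2.81 and 3.04 in LCA replicates, at the 1.59th to 7.65th percentile of all probe sets of an array. Its log2 difference was 0.020 ± 0.10 (SE; limma, 95% interval −0.22 to 0.26, adjusted p = 0.946), and its sign turned to −0.029 when arrays were centred on their medians. As a gauge of signal where little transcript is known in adult males, 15 genes of the egg shell and the larval glue averaged 3.09 to 6.20. The median of these averages was 3.50, so most lay far below the upper end. The mean of cn, 2.86, lay below this range. The dimmer probe set of bw, at a mean of 4.33, lay within it, and the brighter, at 6.31, above it. Because probe sets differ in binding and the table holds no detection calls, this range sets no limit for a given gene, and a difference in cn could be hidden at so low a signal.

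The members had no common direction between the diets, and most shared a low reading in a single LCA pool. LCA replicate 3 was the lowest of the 6 arrays for 5 of 7 probe sets, against 19.7% of all probe sets, and the highest for cn (24.1% of all probe sets). This count was not planned, and the array was picked from the 6 for its low readings, so the shares are description only. LCA replicate 3 deviated from the mean of all arrays by −0.37 for st, −0.38 for Pu, −0.36 for ry, −0.31 for the dimmer probe set of bw and −0.21 for se. In LCA replicates 1 and 2, st, Pu and ry lay within −0.047 to 0.11 of that mean. In the same arrays, se deviated by 0.24 and 0.25 and the dimmer probe set of bw by −0.11 and 0.32. The 12 measured markers of Malpighian tubules also had a low median in LCA replicate 3. They deviated by a median of −0.053 and −0.016 in LCA replicates 1 and 2, of −0.34 in LCA replicate 3, and of 0.026 to 0.21 in control arrays. Of them, 11 averaged lower in LCA flies and ClC-a, a chloride channel, averaged higher (0.12 ± 0.10), and none passed limma's adjusted threshold. Their median log2 difference was −0.24, and −0.16 without LCA replicate 3. Those with the smallest p were SecCl, a chloride channel, at −0.43 ± 0.16 (SE), and Irk2, a potassium channel, at −0.31 ± 0.12, with Lkr, the leucokinin receptor, at −0.37 ± 0.15 and Irk3, a potassium channel, at −0.36 ± 0.16. The 10 fat body markers had medians of −0.019, −0.13 and −0.23 in LCA replicates 1 to 3 and 0.096 to 0.12 in control arrays. Of them 8 averaged lower and 2 higher in LCA flies, with a median log2 difference of −0.27, and −0.18 without LCA replicate 3. Their lowest was AkhR, the receptor of adipokinetic hormone, with a log2 difference of −1.02 ± 0.19 (its other probe set −0.65). The others with the smallest p were Lsd-1, a coat protein of lipid droplets (−0.87 ± 0.18), Desat1, a fatty acid desaturase (−0.40 ± 0.10), and FASN1, a fatty acid synthase (−0.27 ± 0.13). The part of these tissues in the readings of the pigment genes was not tested.

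**Figure D2:**
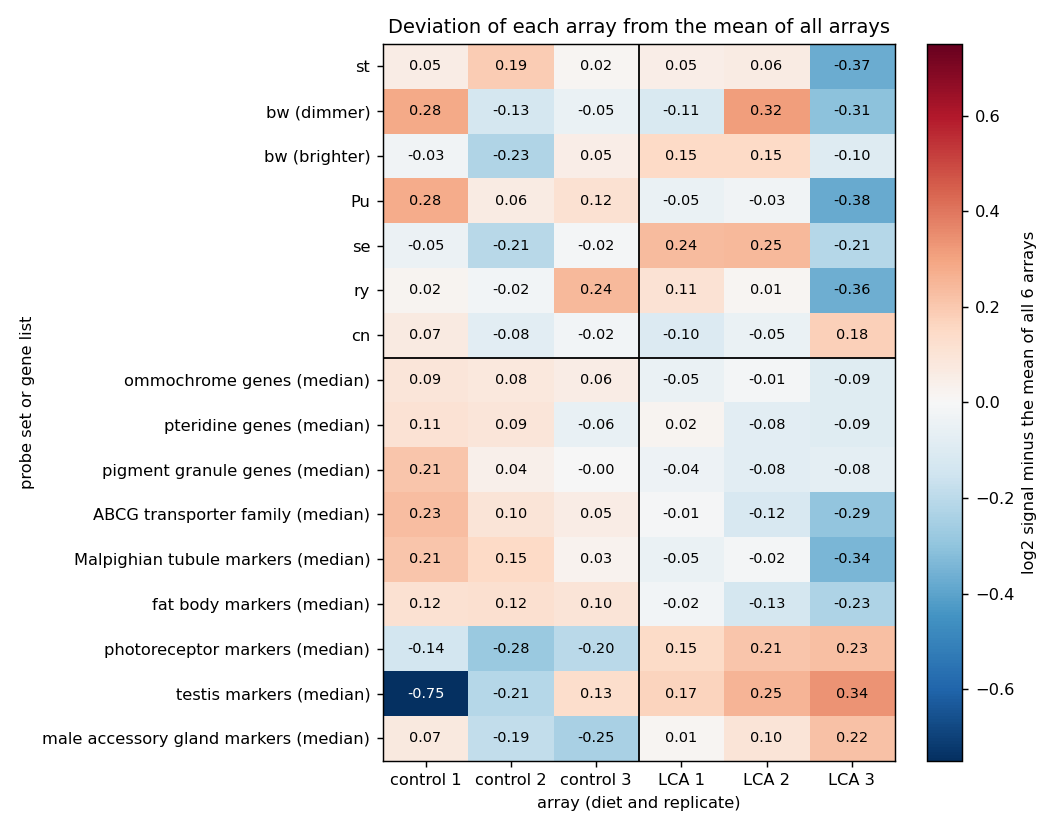
Deviation of each array (x axis, diet and replicate) from the mean of all 6 arrays, in log2 signal, for the 7 probe sets of pigment genes (upper block) and, as the median over genes, for the gene lists (lower block); blue is below and red above the mean. LCA replicate 3 reads −0.37 for st, −0.38 for Pu, −0.36 for ry, −0.31 and −0.10 for bw, −0.21 for se and 0.18 for cn. It reads −0.34 for the Malpighian tubule markers and −0.29 for the ABCG genes, while the photoreceptor markers are above 0 in all LCA arrays.

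Photoreceptor markers averaged the other way. Of 18 listed, 10 were measured, without the rhodopsins, which had no probe set named here. All 10 averaged higher in LCA flies, with a median log2 difference of 0.42, and for 9 of them the diets did not overlap (11.2% of all genes did so in that direction). Examples were trp, the light-activated cation channel, at 0.52 ± 0.09 (SE), inaD, its scaffold, at 0.56 ± 0.10, and Arr1, an arrestin, at 0.41 ± 0.08. Galphaq, of the G protein that rhodopsin activates, had 0.40 ± 0.08, but its other probe sets were at −0.36 and −0.045. Pdh, a dehydrogenase of the retinal pigment cells, differed by 0.12 ± 0.12, santa-maria, a scavenger receptor of carotenoid uptake, by −0.21 ± 0.09 and ninaD, another such receptor, by 0.62 ± 0.73. None of these genes passed the adjusted threshold of limma. The photoreceptor list had the sign of se, cn and the brighter probe set of bw. Its sign was opposite to that of Pu, st, ry and the dimmer probe set of bw. No member passed the adjusted threshold, so these signs do not place a member in a tissue.

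Testis markers also averaged higher in LCA flies, in 22 of 22 measured genes with a median of 0.46, which was 0.25 without control replicate 1 and 0.70 without control replicate 3. Their median deviation ran from −0.75 in control replicate 1 to 0.13 in control replicate 3 and from 0.17 to 0.34 in LCA arrays. The largest contrasts by p were soti at 0.41 ± 0.11 (SE), fzo, a mitochondrial fusion factor of spermatids, at 0.47 ± 0.15, bol at 0.67 ± 0.22 (its other probe sets −0.16 and 0.085) and djl at 0.67 ± 0.22. The 10 accessory gland markers averaged higher too, with a median of 0.23, and Acp36DE, a seminal fluid protein, was at 0.41 ± 0.09, Acp29AB at 0.39 ± 0.11, SP, the sex peptide, at 0.26 ± 0.09 and Acp62F at 0.27 ± 0.11. The log2 difference between 3′ and 5′ control probe sets, which grows as labelled RNA gets less intact, was 2.97 to 3.43 in control arrays and 3.45 to 3.61 in LCA arrays, highest in LCA replicate 3. The part of these tissues and of RNA quality in the readings of the pigment genes was not tested.

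Other genes of the ommochrome route were taken from a list that leaves out the members. Of 4 measured, 3 averaged lower in LCA flies (50.3% of all genes did) and 1 higher (49.7%), with a median log2 difference of −0.15, and none passed limma's adjusted threshold. The transporter-like gene kar, known for its karmoisin eye colour mutant, read 8.38, 8.17 and 8.16 in control and 7.84, 7.70 and 7.85 in LCA replicates. All LCA arrays were lower than all control arrays. Its log2 difference was −0.44 ± 0.10 (SE; limma, unadjusted p = 0.00274, adjusted p = 0.151). KFase, the kynurenine formamidase that follows the enzyme of v, read 7.12, 7.07 and 7.17 in control and 7.30, 7.34 and 7.41 in LCA replicates. All LCA arrays were higher here, and the log2 difference was 0.23 ± 0.08 (SE; limma, unadjusted p = 0.0227, adjusted p = 0.263). Kyat, an aminotransferase that diverts kynurenine to kynurenic acid, differed by −0.20 ± 0.11, with groups that did not overlap. The dim cd, a peroxidase-like gene of the last ommochrome step, differed by −0.10 ± 0.08. The neighbours of cn in tryptophan breakdown thus went in different directions in these pools, KFase higher and Kyat lower in LCA flies. The transporter-like kar was lower too, and none of them passed the threshold.

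**Figure D3:**
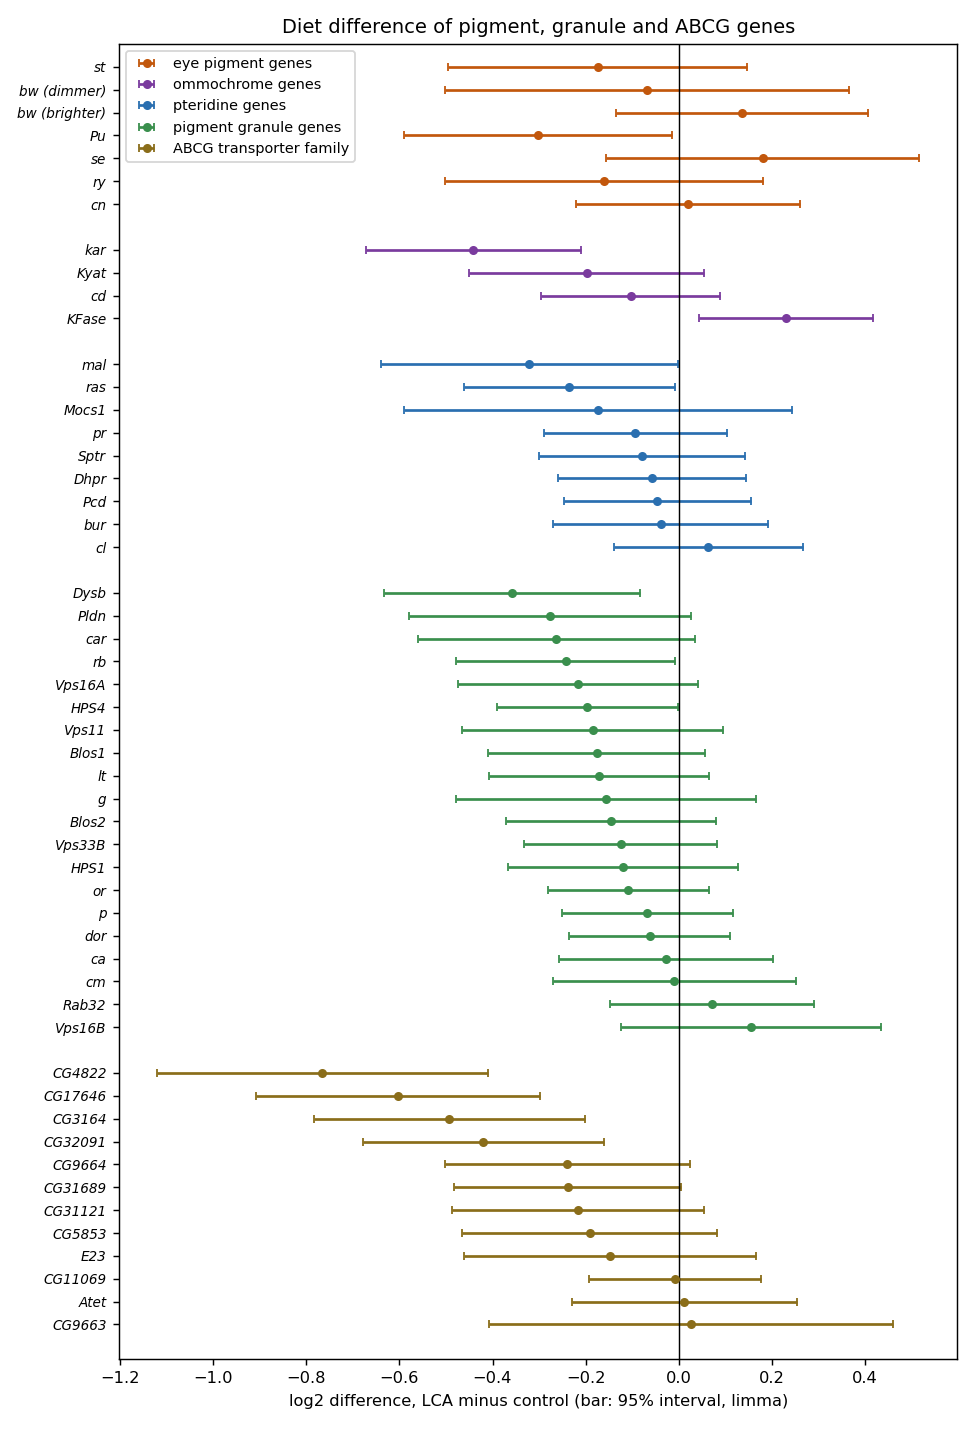
Log2 difference between diets (x axis, LCA minus control) of the pigment genes and of the ommochrome, pteridine, pigment granule and ABCG genes (y axis, 1 gene or probe set per row); the dot is the estimate and the bar its 95% interval from limma, not adjusted for the number of genes. Among pigment genes only the interval of Pu leaves out 0. In the lists, kar, mal, ras, Dysb, rb, HPS4 and the ABCG genes CG4822, CG17646, CG3164 and CG32091 have intervals wholly below it. KFase has its interval wholly above it. Of all genes, 10.5% were lower in LCA flies at an unadjusted p under 0.05 (limma).

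Of 9 measured genes of pteridine and cofactor synthesis, 8 averaged lower and 1 higher in LCA flies, with a median log2 difference of −0.079, where the median of all genes was −0.0016. Of them 2 were below an unadjusted p of 0.05, as were 10.5% of all genes with a lower mean. They were mal, the sulfurase that activates the molybdenum cofactor of the ry enzyme, at −0.32 ± 0.14 (SE; limma, adjusted p = 0.309), and ras, the IMP dehydrogenase of guanine nucleotide supply, at −0.23 ± 0.10 (adjusted p = 0.302). In mal the groups overlapped, and in ras they did not. Next by p were pr, which acts on the product of Pu in the same pathway, at −0.094 ± 0.083, and Mocs1, of molybdenum cofactor synthesis, at −0.17 ± 0.18. The thioredoxin-like gene cl, which acts with se, was the higher gene at 0.063 ± 0.086.

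Pigment granules are lysosome-related organelles that need the same sorting machinery as lysosomes. Of 20 measured genes of it, 18 averaged lower in LCA flies and 8 did not overlap in that direction (15.0% of all genes), with a median log2 difference of −0.15 and 0 past the adjusted threshold of limma. The smallest unadjusted p-values belonged to Dysb, the dysbindin of a granule biogenesis complex, at −0.36 ± 0.12 (SE; limma, adjusted p = 0.244), and to rb, an adaptor complex subunit, at −0.24 ± 0.10 (adjusted p = 0.304). HPS4, of another biogenesis complex, was at −0.20 ± 0.08 and Pldn, the pallidin of the complex of Dysb, at −0.28 ± 0.13. The higher genes were Rab32, the small GTPase of lightoid flies, at 0.071 and Vps16B at 0.15. Control replicate 1 was the array farthest above the mean for this list, at 0.21, and without it 16 of 20 averaged lower and the median was −0.084.

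The proteins of w, st and bw belong to the ABCG family, and 12 other members of it were measured. Of these, 10 averaged lower in LCA flies, 8 without overlap (15.0% of all genes), with a median log2 difference of −0.23 and 0 past the adjusted threshold of limma. The lowest was CG4822, which read 9.46, 9.10 and 9.42 in control and 8.78, 8.32 and 8.58 in LCA replicates. Every LCA array lay below every control array, at a log2 difference of −0.76 ± 0.15 (SE; limma, unadjusted p = 0.0014, adjusted p = 0.137). CG17646 followed at −0.60 ± 0.13, CG3164 at −0.49 ± 0.12 and CG32091 at −0.42 ± 0.11. These 4 were named for the smallest p of the 12, so their size and separation follow in part from that choice. The log2 differences of the 12 genes ran from −0.76 to 0.027. E23 (−0.15), CG11069 (−0.0085), Atet (0.011) and CG9663 (0.027) were smaller in size than st (−0.17). Differences between genes were not tested. The 12 genes deviated by a median of −0.29 in LCA replicate 3. Without that array their median log2 difference was −0.15.

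Genes with the pattern most like that of Pu, the member whose diets did not overlap, were sought among 11981 other genes by the root mean square difference of centred log2 values over the 6 arrays. The closest was pnr, a GATA transcription factor, at 0.022, followed by CG17493 at 0.037 and egl, a cargo adaptor of the dynein motor, at 0.041. The root mean square deviation of Pu itself was 0.20. Their log2 differences were −0.33, −0.34 and −0.37, and each had LCA arrays wholly below control arrays. Both traits follow from the search, which picked genes for their likeness to Pu, and are no separate result.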

How the data were processed

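The authors deposited log2 signals, 1 per probe set and array, for 18952 probe sets. The log2 scale was read from the values, which run from 2.32 to 14.6. How probes were summarized, background-corrected and normalized is not given in the sources used here. Once sorted, values of the arrays differed from the array mean by at most 0.10, so all share a scale and a shift of most transcripts is invisible. The sources name no batch. Replicates differed by a median of 0.10 to 0.21, so none is a copy of another.

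Array controls (183) were left out. Of 18769 probe sets, 13647 had a single gene symbol, 402 had several and 4720 were unnamed here, by GEO's platform annotation with symbols brought up to date from the Release 6 plus ISO1 MT gene table. In gene lists a gene was represented by its brightest probe set (11982 genes). Differences were fitted with limma 3.58.1 in R 4.3.3 over all probe sets (lmFit, eBayes, LCA minus control) and adjusted by Benjamini-Hochberg over all of them at 0.05. Exact permutation tests used scipy 1.17.1. In a simulation in which 200 of 18769 probe sets were altered, this fit called 44.5% of 1.5-fold changes, with 5 false calls. It called 93% of 2-fold changes, with 11 false calls. The simulated noise was independent between probe sets, whereas a leading component held 54.1% of the variance of the real arrays. The simulated shares may therefore overstate what could be detected here. In the real fit AkhR, at −1.02, had an adjusted p of 0.135 (limma).

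Members and lists were chosen with earlier results of these data known. The rule named all members, up to 4 genes of each list by smallest p, and the 3 genes nearest to a member without overlap. The naming of cl, Rab32, Vps16B, ClC-a, E23, CG11069, Atet and CG9663 fell outside this rule and was chosen after their values were seen. A planned description of w was dropped for want of a named probe set, and dhd, misplaced among the pteridine genes, was removed from that list after its values were seen. RNA quality was the mean of 5 differences between 3′ and 5′ control probe sets.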

Additional observations from a re-analysis of the deposited data

How the results depend on the processing

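The 7 pigment probe sets were recomputed under quantile normalization, median centring, a filter at the median signal, a floor, trend and robust eBayes, array weights, a replicate block and the loss of each array. Of 88 recomputed differences, 79 kept their direction and their side of the threshold. The dimmer probe set of bw turned to 0.18 with array weights, and cn to −0.029 with median centring and to −0.022 with the floor. Array weights brought bw (brighter, 0.33) and se (0.36) past the adjusted threshold and gave 6861 calls over all probe sets and −0.16 for Pu, in a fit that stopped before convergence with a weight of 24.0 for control replicate 2 against 0.22 to 1.26. The floor gave 6 calls. The cause was not tested. Leaving out each array gave −0.36 to −0.19 for Pu, −0.25 to −0.031 for st, −0.26 to −0.019 for ry, 0.10 to 0.33 for se, 0.055 to 0.22 for the brighter and −0.24 to 0.068 for the dimmer probe set of bw, and −0.065 to 0.075 for cn, with 0 calls over all probe sets each time. The median of the ommochrome list was −0.20 with median centring and with the filter, which left 3 genes, and −0.18 to −0.11 without each array. The ABCG and photoreceptor medians, checked after seeing the data, kept their sign under both scalings. Same-numbered arrays had correlated deviations of 0.26, −0.021 and 0.021, and arrays with different numbers −0.28 to 0.26. Pairing by number was thus not evident, though 3 arrays per diet cannot exclude it. The replicate block gave 0 calls, with 3535 probe sets at an unadjusted p under 0.05, and −0.30 for Pu.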
